A study of Mus musculus with 12 samples.

Results

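Heat shock chaperones of the cytosol were examined in mouse ear fibroblasts grown on hydrogels of different stiffness and viscoelasticity. The set was the 10 listed genes Hspa1a, Hspa1b, Hspa8, Hsp90aa1, Hsp90ab1, Hsph1, Dnajb1, Hspb1, Bag3 and Hsf1, of the 33246 genes in the table of raw read counts, and all 10 passed the filter on low counts that left 14542 genes for testing. The fibroblasts came from the ears of 1-month-old C57BL/6 mice, were used at passage 2, and 500000 cells were kept for 48 h on alginate hydrogels carrying RGD adhesion peptides before polyA RNA was sequenced. In elastic gels the alginate was crosslinked covalently, and in viscoelastic gels it was crosslinked by calcium ions and relaxed stress slowly. More crosslinker was used for the stiffer gels of both types. Stress relaxation and the kind of crosslinker therefore cannot be told apart here, nor can stiffness and the amount of crosslinker. Viscoelasticity below stands for the gel type. Each type was made at 2 kPa and at 20 kPa, which gave 4 groups (2 kPa Elastic, 20 kPa Elastic, 2 kPa Viscoelastic and 20 kPa Viscoelastic) of 3 replicates. The labels give no transgene or heat treatment for any group, and all 12 samples shared the same medium, passage and time on the gel. The study calls the replicates biological, but the labels do not say whether they came from separate animals or cultures, so the p-values measure the spread between these samples.

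Totals ran from 36626221 to 43612804 counts per sample. All 8 fibroblast markers were expressed, with a summed level of 23400 to 29000 counts scaled to library size (CPM) per sample. The 3 chondrocyte markers were also expressed: Col2a1, Acan and Sox9 summed to between 3790 and 5270 CPM, with 4130 to 5270 CPM at 2 kPa and 3790 to 3880 CPM at 20 kPa on elastic gels, and 4000 to 5020 CPM at 2 kPa and 3800 to 5040 CPM at 20 kPa on viscoelastic gels. Ear tissue holds cartilage, and the part of chondrocyte-like cells in the results was not tested. No other marker list (keratinocyte, endothelial, leukocyte, melanocyte, pericyte, muscle or Schwann cell) exceeded 7.09 CPM in any sample. In bulk RNA, a change in the number of cells of a type and a change in RNA per cell cannot be told apart.

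Chaperones hold unfolded proteins and help them reach their folded shape. Hsf1 encodes the heat shock factor, which is held inactive in unstressed cells and, when unfolded proteins accumulate, forms trimers that bind heat shock elements (alternating copies of GAA and its complement TTC) in the promoters of chaperone genes. HSP70 proteins bind exposed stretches of a client in a cycle of ATP hydrolysis, HSP40 proteins such as Dnajb1 deliver the client and start hydrolysis, and HSP110 proteins such as Hsph1 release the ADP so that the client can leave. HSP90 proteins act later, on kinases, hormone receptors and other nearly folded clients, small heat shock proteins such as Hspb1 keep clients from aggregating without using ATP, and Bag3 links HSP70 to small heat shock proteins and to autophagy. Hspa8 and Hsp90ab1 are the constitutive forms, whereas Hspa1a and Hspa1b are the classical stress-induced forms and are low in unstressed cells.

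The 250 bases before the transcription start of Hsph1, Hspb1 and Hspa1a are shown because these genes belong to the family that responds to Hsf1. In the order listed, they gave a change with both gel type and stiffness, a change with gel type and no detectable change. The sequences are from RefSeq (GRCm38.p6), written 5′ to 3′ on the strand of the gene, with each match to a heat shock element of 2 units, GAANNTTC or TTCNNGAA, in capitals.
Hsph1, chr5:149636337-149636586, minus strand: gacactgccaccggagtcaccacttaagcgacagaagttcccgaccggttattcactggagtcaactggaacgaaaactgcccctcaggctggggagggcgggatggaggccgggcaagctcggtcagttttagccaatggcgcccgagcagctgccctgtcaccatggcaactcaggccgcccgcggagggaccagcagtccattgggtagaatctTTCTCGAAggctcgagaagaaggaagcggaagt
Hspb1, chr5:135887669-135887918, plus strand: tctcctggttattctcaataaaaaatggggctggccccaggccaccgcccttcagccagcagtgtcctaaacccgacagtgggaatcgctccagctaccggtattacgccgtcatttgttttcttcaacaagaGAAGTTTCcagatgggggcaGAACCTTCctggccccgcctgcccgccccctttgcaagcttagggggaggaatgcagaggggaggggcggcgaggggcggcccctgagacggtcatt
Hspa1a, chr17:34972157-34972406, minus strand: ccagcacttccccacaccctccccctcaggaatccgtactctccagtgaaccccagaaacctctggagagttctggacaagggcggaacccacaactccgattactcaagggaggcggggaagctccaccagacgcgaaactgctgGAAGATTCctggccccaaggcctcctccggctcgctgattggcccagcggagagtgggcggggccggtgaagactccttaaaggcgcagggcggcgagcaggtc
The match lay 33 bases before the RefSeq start of Hsph1, 117 and 97 bases before that of Hspb1, and 104 bases before that of Hspa1a. The Hspa1b window carried the same match at 104 bases and differed from that of Hspa1a at 3 of 250 bases. The RefSeq start of Hsph1 (149636336) lies inside the gene as annotated by GENCODE, which reaches 149636376 on this minus strand. The Hsph1 match thus lies within that gene model and not before it. Of the 10 genes, 6 were matched by symbol in the RefSeq promoter table, and 4 of these had a 2-unit match, against 14.5% of all genes and 12.8% of all promoters of the same length. Bag3 and Dnajb1 had no match in their windows, but these windows have limits. The second Dnajb1 window (83608298-83608547) lies inside the GENCODE gene, which starts at 83608193. The RefSeq start of Bag3 (128523583) and the first of Dnajb1 (83608175) lie before the GENCODE starts (128523616 and 83608193). The bases just after these RefSeq starts were not found in the GENCODE transcripts. None of the 6 had a match to the 3-unit element, GAANNTTCNNGAA or TTCNNGAANNTTC, which was found in 0.466% of promoters, or 153 of 32851. Each 3-unit match also contains 2-unit matches. Hsph1 had 2 CCAAT boxes (CCAAT or its complement ATTGG), Hspa1a, Hspa1b and Dnajb1 had 1, and 33.8% of promoters had at least 1. These matches describe letters in a window, and no binding was measured.

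**Figure D1:**
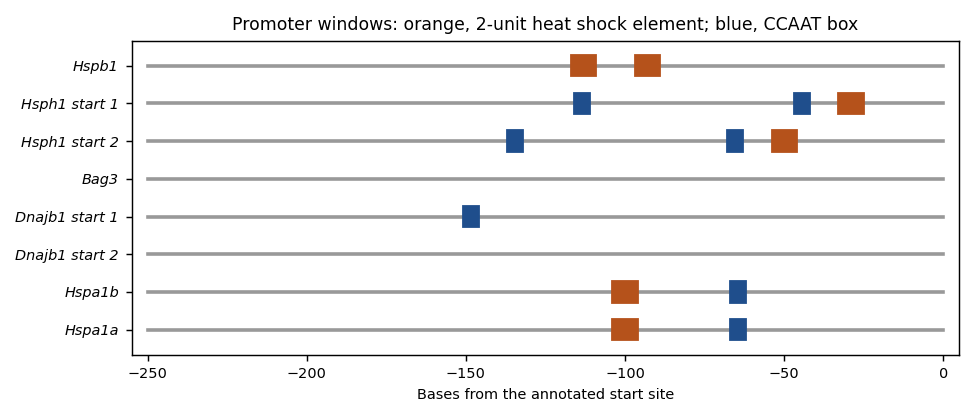
Positions of 2-unit heat shock elements (orange) and CCAAT boxes (blue) in the 250 bases before each annotated start, in bases from the start site, for the 6 genes with a promoter in the table. Hsph1 and Dnajb1 have 2 annotated starts in RefSeq, and the Hsph1 element lies 33 bases before the first start and 54 bases before the second. Both Hsph1 starts and the second Dnajb1 start lie inside the genes as annotated by GENCODE.

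The 10 genes covered a wide range of levels, given here per kilobase of exon (CPM per kb, mean of the 12 samples) so that genes can be compared. The length was the union of all annotated exons. For Hsph1, Hsf1 and Hspa8 this union (7266, 7099 and 4301 bases) is longer than the longest coding transcript (3802, 2104 and 2394 bases). The places of Hsph1 and Hsf1 in the order therefore depend on this choice. The order was Hsp90ab1 at 581, Hspa8 at 193, Hsp90aa1 at 86.1, Bag3 at 52.4, Hsph1 at 44.1, Hspb1 at 15.9, Dnajb1 at 14.1, Hspa1b at 4.51, Hsf1 at 3.72 and Hspa1a at 1.45 CPM per kb. Hspb1 and Dnajb1 were not separated beyond their spread on 20-kPa elastic gels (13.5 ± 1.06 and 14.4 ± 0.537 CPM per kb, SD, n = 3) or on 2-kPa elastic gels (14.6 ± 1.36 and 13.9 ± 0.486 CPM per kb). Nor, by this length, were Bag3 and Hsph1 on 20-kPa (51.5 ± 3.01 and 48.8 ± 2.32 CPM per kb) or 2-kPa viscoelastic gels (50.6 ± 2.49 and 49.0 ± 0.774 CPM per kb). The constitutive forms thus led the order, and the stress-induced Hspa1a closed it. Reads shared between genes may be missing from these levels, as their treatment in the counting is not given. Together the 10 genes held 0.318% of the counts on 2-kPa elastic, 0.359% on 20-kPa elastic, 0.343% on 2-kPa viscoelastic and 0.37% on 20-kPa viscoelastic gels, and Hspa8, Hsp90aa1 and Hsp90ab1 made up 82.2% to 85.8% of their summed CPM in each sample.

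Below, levels of one gene are in CPM normalized by TMM (trimmed mean of M values), differences are log2 fold changes from the edgeR quasi-likelihood test, and a gene was called when its Benjamini-Hochberg adjusted p over all 14542 genes was under 0.05. Interaction means the log2 fold change from 2 to 20 kPa on viscoelastic gels less the same change on elastic gels. The comparison at 2 kPa and the one on elastic gels share the 2-kPa elastic samples, and each other pair of comparisons with a common group likewise shares samples.

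**Figure D2:**
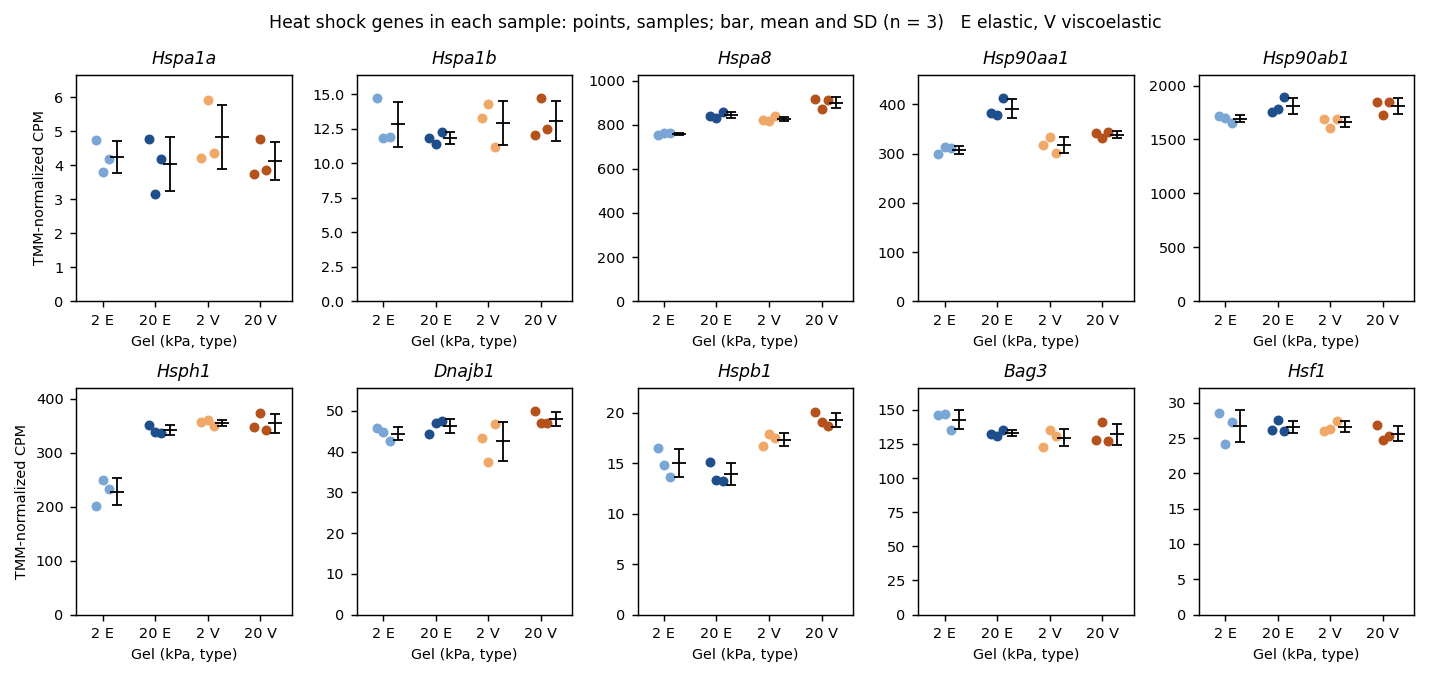
TMM-normalized CPM of the 10 genes in each sample (points), with the mean and SD of the 3 samples of a group (bar), on 2-kPa and 20-kPa elastic (E) and viscoelastic (V) gels. Each axis starts at 0. The 3 samples on 2-kPa elastic gels sit between 201 and 249 CPM for Hsph1, below all other samples.

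Hsph1, which encodes the HSP110 nucleotide exchange factor of HSP70, had the largest fold changes of the set. It lies at chr5:149614287-149636376 on the minus strand (mm10), and its longest coding transcript has 18 exons. Its levels were 201, 249 and 233 CPM at 2 kPa and 352, 338 and 336 CPM at 20 kPa on elastic gels, and 357, 361 and 350 CPM at 2 kPa and 348, 374 and 342 CPM at 20 kPa on viscoelastic gels. The 3 samples on 2-kPa elastic gels were the lowest of the 12, and the ranges of the other groups overlapped. Hsph1 was up-regulated on viscoelastic relative to elastic gels at 2 kPa, by 0.64 ± 0.0728 on the log2 scale (SE, adjusted p = 6.29e-05), or 56.2%. On elastic gels it rose with stiffness by 0.59 ± 0.0727 (adjusted p = 0.00018), or 50.3%. At 20 kPa, the viscoelastic and elastic gels differed by 0.05 (95% interval −0.10 to 0.20, adjusted p = 0.623), and on viscoelastic gels the difference with stiffness had an interval of −0.16 to 0.15 (adjusted p = 0.979). The stiffness response itself differed between the gel types, with an interaction of −0.59 ± 0.102 (adjusted p = 0.0026). These 3 calls were kept in each of the 12 fits that left out 1 sample. The summed chondrocyte markers also separated the elastic gels, with 4130 to 5270 CPM at 2 kPa and 3790 to 3880 CPM at 20 kPa. Their range on 2-kPa viscoelastic gels (4000 to 5020 CPM) overlapped that on 2-kPa elastic gels. The part of these markers in the result was not tested. The ratio of Hsph1 to Hspa8 CPM, which compares the exchange factor with the constitutive HSP70, was 0.3 ± 0.031 on 2-kPa elastic gels, against 0.406 ± 0.0136 on 20-kPa elastic, 0.431 ± 0.0128 on 2-kPa viscoelastic and 0.395 ± 0.0304 on 20-kPa viscoelastic gels (SD, n = 3).

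Among the HSP70 genes, Hspa8 was high and varied little, and the stress-induced pair was low with no detectable difference between groups. Hspa8 had 754, 762 and 763 CPM at 2 kPa and 839.9, 830.1 and 858 CPM at 20 kPa on elastic gels, and 823, 817 and 838 CPM at 2 kPa and 916, 869.6 and 912 CPM at 20 kPa on viscoelastic gels. The groups did not overlap in any of the 4 comparisons, yet none passed the test. The difference was 0.12 between viscoelastic and elastic gels at 2 kPa (adjusted p = 0.148) and 0.09 at 20 kPa (adjusted p = 0.217), and 0.15 with stiffness on elastic (adjusted p = 0.0944) and 0.12 on viscoelastic gels (adjusted p = 0.251). Over these comparisons the 95% intervals ran from −0.03 to 0.27. With DESeq2, Hspa8 was called for viscoelasticity at 2 kPa (0.12, adjusted p = 0.0137) and for stiffness on elastic gels (0.16, adjusted p = 0.00104). Of the 100-base stretches of the longest Hspa8 transcript, 63.4% also occur in transcripts of other genes, so its reads may be shared with these copies.

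Hspa1a and Hspa1b, neighbouring genes of 1 exon at chr17:34969190-34972156 and chr17:34956436-34959238, encode the inducible HSP70. Hspa1a had 4.74, 3.8 and 4.2 CPM at 2 kPa and 4.76, 3.17 and 4.19 CPM at 20 kPa on elastic gels, and 4.23, 5.93 and 4.37 CPM at 2 kPa and 3.74, 4.78 and 3.86 CPM at 20 kPa on viscoelastic gels. Hspa1b had 14.7, 11.8 and 11.9 CPM, 11.8, 11.4 and 12.2 CPM, 13.3, 14.3 and 11.2 CPM, and 12, 14.7 and 12.4 CPM in the same order of groups. All groups overlapped for both genes. The intervals of the 4 differences ran from −0.59 to 0.55 for Hspa1a, which had 139 to 247 counts per sample, and from −0.35 to 0.38 for Hspa1b, and the lowest adjusted p was 0.459 and 0.327. Of the 100-base stretches of Hspa1a, 47.1% also occur in Hspa1b, so that reads cannot be assigned to one of them with certainty. The counts of both were therefore also summed, and the 4 differences of the sum lay between −0.11 and 0.12 with adjusted p of 0.445 or more. The treatment of reads that map to more than one place is not given, and any that were dropped are missing from the sum too. An annotated gene on the opposite strand (Gm20481) overlaps Hspa1a, and the strand setting of the counting is not stated.

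Dnajb1, the HSP40 partner that is induced with HSP70 under heat stress, had 45.7, 44.9 and 42.7 CPM at 2 kPa and 44.3, 46.9 and 47.5 CPM at 20 kPa on elastic gels, and 43.4, 37.4 and 46.8 CPM at 2 kPa and 49.9, 47.0 and 46.9 CPM at 20 kPa on viscoelastic gels. Only on viscoelastic gels were the samples of the stiffnesses fully apart, with a difference of 0.17 between 20 and 2 kPa (adjusted p = 0.205). Over the 4 comparisons its intervals ran from −0.22 to 0.33. Without the second 2-kPa viscoelastic sample, at 37.4 CPM, that difference was 0.09.

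The HSP90 genes differed from each other. Hsp90aa1, the more inducible form (chr12:110690605-110702728, minus strand), had 299, 312 and 310.3 CPM at 2 kPa and 382, 379 and 413 CPM at 20 kPa on elastic gels, and 317, 333 and 300.2 CPM at 2 kPa and 342, 331 and 344 CPM at 20 kPa on viscoelastic gels. The 20-kPa elastic samples were the highest of the 12. Hsp90aa1 rose with stiffness on elastic gels by 0.35 ± 0.0595 (adjusted p = 0.00151), or 27.4%. At 20 kPa it was lower on viscoelastic than on elastic gels, with a difference of −0.21 ± 0.0594 (adjusted p = 0.0147), or −13.5%. This second call was lost without the third 20-kPa elastic sample (−0.17, adjusted p = 0.0749) and without the second 20-kPa viscoelastic sample (−0.19, adjusted p = 0.0519). Viscoelastic and elastic gels differed by 0.04 at 2 kPa (adjusted p = 0.64), and the stiffness difference on viscoelastic gels was 0.10 (adjusted p = 0.407). The interaction of −0.25 ± 0.0841 did not pass the test (adjusted p = 0.0837), although it did with DESeq2 (−0.27, adjusted p = 0.0127), so that a different stiffness response of Hsp90aa1 on the gel types was not established. Transcripts of other genes share 47.5% of the 100-base stretches of Hsp90aa1.

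Hsp90ab1, the constitutive HSP90 and the most abundant gene of the set (chr17:45567775-45573271, minus strand), had 1719, 1702 and 1654 CPM at 2 kPa and 1756, 1783 and 1896 CPM at 20 kPa on elastic gels, and 1693, 1603 and 1688 CPM at 2 kPa and 1850.0, 1722 and 1849 CPM at 20 kPa on viscoelastic gels. The 20-kPa samples lay above the 2-kPa samples on both gel types, with a difference of 0.10 on elastic (adjusted p = 0.359) and 0.12 on viscoelastic gels (adjusted p = 0.35), neither of which passed the test. The intervals of the 4 differences ran from −0.17 to 0.26. The ratio of Hsp90aa1 to Hsp90ab1 CPM was 0.182 ± 0.00721 on 2-kPa elastic, 0.216 ± 0.00346 on 20-kPa elastic, 0.191 ± 0.0154 on 2-kPa viscoelastic and 0.188 ± 0.00379 on 20-kPa viscoelastic gels (SD, n = 3), and its values on 20-kPa elastic gels were above those of all other samples.

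Hspb1, a small heat shock protein that also binds actin filaments (chr5:135887919-135889563, plus strand), was higher in each viscoelastic than in each elastic sample. Its levels were 16.5, 14.9 and 13.7 CPM at 2 kPa and 15.2, 13.3 and 13.2 CPM at 20 kPa on elastic gels, and 16.7, 17.9 and 17.4 CPM at 2 kPa and 20.05, 19.0 and 18.7 CPM at 20 kPa on viscoelastic gels. The narrowest gap was at 2 kPa, between 16.5 and 16.7 CPM. Hspb1 was up-regulated on viscoelastic gels at 20 kPa by 0.47 ± 0.0786 (adjusted p = 0.000531), or 38.6%. At 2 kPa the difference was 0.21 ± 0.0789 and did not pass (adjusted p = 0.0775), though it did without the first 2-kPa elastic sample (0.28, adjusted p = 0.046), and with a correction for gene length it was 0.08 (adjusted p = 0.456). The stiffness differences were −0.11 on elastic (adjusted p = 0.385) and 0.15 on viscoelastic gels (adjusted p = 0.306), with an interaction of 0.26 (adjusted p = 0.17). With a correction for gene length the difference at 20 kPa was 0.25 (adjusted p = 0.0199), so that its size depends on that choice, and 42.7% of the 100-base stretches of Hspb1 also occur in the copy Hsp25-ps1.

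No comparison passed the test for Bag3 or Hsf1. Bag3, the co-chaperone that couples HSP70 to autophagy (chr7:128523616-128546981, plus strand), had 146, 147 and 135 CPM at 2 kPa and 132, 131 and 135 CPM at 20 kPa on elastic gels, and 123, 135 and 131 CPM at 2 kPa and 128, 141 and 127 CPM at 20 kPa on viscoelastic gels. The difference between viscoelastic and elastic gels at 2 kPa was −0.14 ± 0.0605 (adjusted p = 0.115), and that with stiffness on elastic gels was −0.11 (adjusted p = 0.272). After the gene length correction the first was −0.20 (adjusted p = 0.0245). Hsf1, the transcription factor of the heat shock response (chr15:76477422-76501913, plus strand), had 24.2 to 28.6 CPM at 2 kPa and 26.1 to 27.6 CPM at 20 kPa on elastic gels, and 26.0 to 27.5 CPM at 2 kPa and 24.8 to 26.9 CPM at 20 kPa on viscoelastic gels. All 4 Hsf1 intervals fell within −0.20 to 0.14 and the lowest adjusted p was 0.587. The mRNA of Hsf1 does not measure its activity, which is set on the protein.

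**Figure D3:**
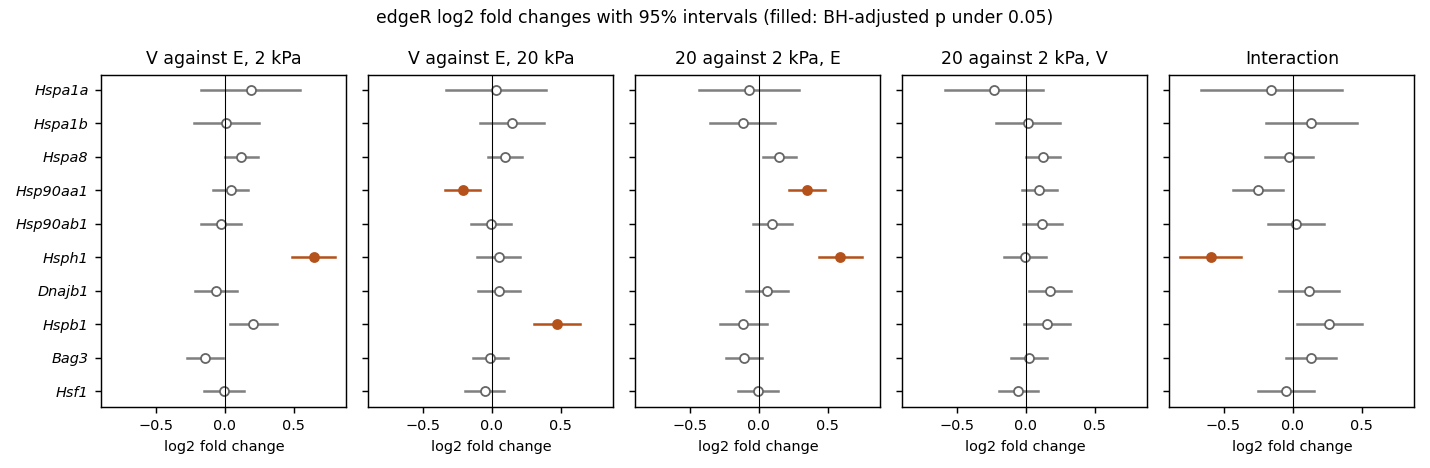
Log2 fold changes from edgeR with 95% intervals for the 10 genes in the 4 comparisons and the interaction (filled points, adjusted p under 0.05). Hsph1 lies at 0.64 for viscoelastic (V) against elastic (E) gels at 2 kPa and at 0.59 for stiffness on elastic gels, with intervals clear of 0.

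Counted over the set, 1 or 2 of the 10 genes were called in 3 of the 4 comparisons and none in the other. Viscoelastic gels against elastic gels at 2 kPa gave 1 call of 10 (Hsph1, higher), where 19.9% of all tested genes were called (8.77% higher and 11.1% lower). Without the first 2-kPa elastic sample this count was 2 of 10, against 10.5% of all genes, and with the gene length correction 2 of 10, against 18.4%. The comparison at 20 kPa gave 2 of 10 (Hspb1 higher and Hsp90aa1 lower), where 33.5% were called (17.4% higher and 16.1% lower). Stiffness on elastic gels gave 2 of 10 (Hsph1 and Hsp90aa1, both higher), against 14% of all genes (6.81% higher and 7.14% lower). On viscoelastic gels stiffness gave 0 of 10 with edgeR and with DESeq2, with 2 genes at an unadjusted p under 0.05, against 2.28% of all genes called (1.58% higher and 0.695% lower). The interaction was called for 1 of 10 (Hsph1, negative), against 7.56% of all genes (4.45% positive and 3.12% negative). The groups did not overlap for 3, 3, 4 and 4 of the 10 genes in the 4 comparisons in that order, against 36.3%, 49.9%, 35.6% and 22.3% of all genes. The median log2 fold change of the 10 genes was 0.03 for viscoelasticity at 2 kPa, 0.04 at 20 kPa, 0.03 for stiffness on elastic and 0.06 on viscoelastic gels, against medians of 0.02 or less in size over all genes. A joint shift of the set was not seen in these counts, and the calls rested on Hsph1, Hsp90aa1 and Hspb1. The summed CPM of the 10 genes, mostly Hspa8, Hsp90aa1 and Hsp90ab1, did differ between groups. On elastic gels it was 3196 to 3272 at 2 kPa and 3564 to 3742 at 20 kPa. On viscoelastic gels it was 3351 to 3417 at 2 kPa and 3547 to 3697 at 20 kPa. The gel types overlapped at 20 kPa only, and the sum was not tested.

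The 10 genes also varied differently across the 12 samples. The closest pairs by Pearson correlation of log2 CPM were Hspa8 with Hsph1 (r = 0.791), Hsp90ab1 with Dnajb1 (r = 0.783), Hsp90aa1 with Hsp90ab1 (r = 0.664) and Hspa1a with Hspa1b (r = 0.655), and the most opposed were Hspa1a with Dnajb1 (r = −0.669) and Hsph1 with Bag3 (r = −0.642). Taken as deviations from the group means, r was −0.217, 0.655, 0.214 and 0.69 for the first 4 pairs and −0.609 and 0.15 for the last, in the order given. These 12 points share the 4 groups and the scaling of each library, so the values describe likeness only. Among all tested genes, the ones most like Hsph1 were Pappa2 (r = 0.974), Morc1 (r = 0.968) and Adamts5 (r = 0.961). Those most like Hsp90aa1 were Pbp2 (r = 0.975) and Capn2 (r = 0.958), and those most like Hspb1 were Capns1 (r = 0.986) and Ndufa13 (r = 0.974). Hspa8 was followed most closely by Lsm5 (r = 0.966), Npm1 (r = 0.965) and Txn1 (r = 0.958), and Hsp90ab1 by Psmd8 (r = 0.964), Eif5a (r = 0.958) and Ran (r = 0.943). The closest genes were Psme3 (r = 0.924), Ttl (r = 0.909) and Arhgdia (r = 0.907) for Dnajb1 and Mmp14 (r = 0.949), Ccdc3 (r = 0.947) and Atp6ap1 (r = 0.92) for Bag3. For the low genes the closest were Pim2 (r = 0.874), Ier5l (r = 0.871) and Slc12a3 (r = 0.861) for Hspa1a, Isg15 (r = 0.892), Bst2 (r = 0.881) and Phf11d (r = 0.875) for Hspa1b, and for Hsf1 no gene exceeded the 0.785 of Tnfrsf18.

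The remaining chaperone machinery was read from 7 lists of 94 genes, of which 91 were tested, Hspb3, Cryaa and Hsf5 being too low. Viscoelastic gels at 2 kPa called 10 of 91 (5 higher and 5 lower, 11%), and at 20 kPa 31 of 91 (18 higher and 13 lower, 34.1%). Stiffness called 10 of 91 on elastic gels (9 higher and 1 lower, 11%) and 7 of 91 on viscoelastic gels (7 higher, 7.69%, where 1.58% of all genes were called higher). The share of all genes called was 19.9% for gel type at 2 kPa, 33.5% at 20 kPa and 14% for stiffness on elastic gels. These counts moved with single samples. On viscoelastic gels, edgeR called 0 of 91 for stiffness without the first 20-kPa viscoelastic sample (0.244% of all genes called, 23 of 91 at an unadjusted p under 0.05), 0 without the third (0.0611% and 22) and 0 with only the 6 samples compared (0.267% and 20). With the gene length correction it called 2 of 91 (1.14% of all genes), and DESeq2 called 15 (5.79%). On elastic gels the count for stiffness with 1 sample left out ran from 1 of 91 without the third 20-kPa elastic sample (7.22% of all genes) to 20 without the second 2-kPa viscoelastic sample (16.1%). For gel type at 2 kPa it was 5 of 91 without the first (10.5% of all genes) or the second (13.1%) 2-kPa elastic sample.

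**Figure D4:**
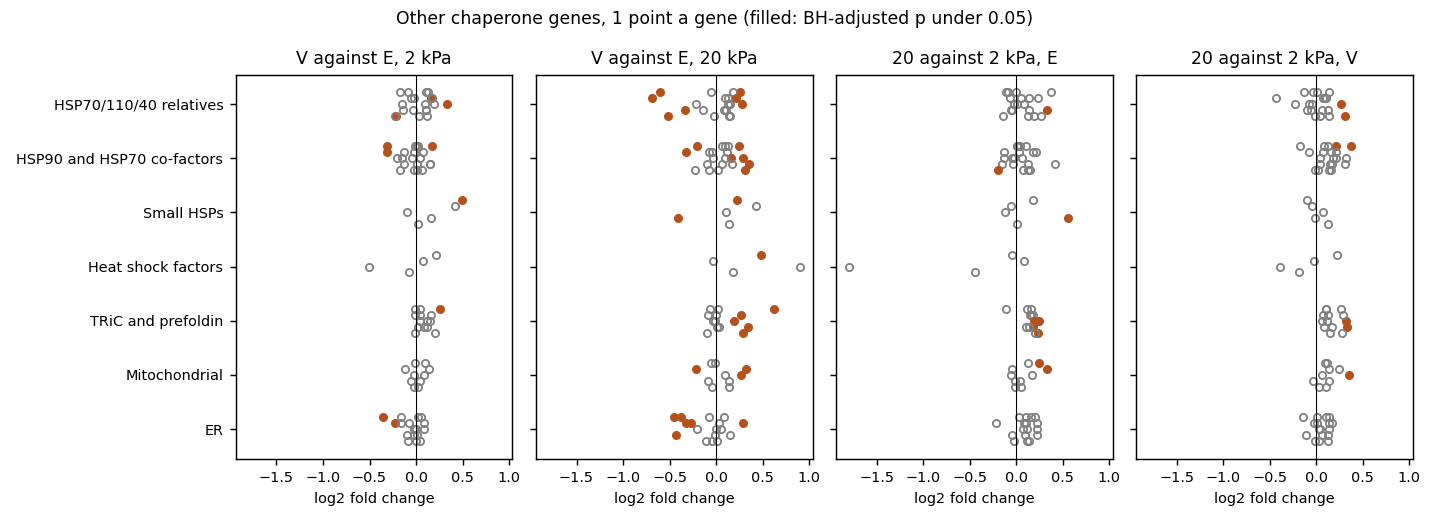
Log2 fold changes of the 91 tested genes of the 7 other chaperone lists, 1 point a gene (filled, adjusted p under 0.05), for gel type (V viscoelastic, E elastic) and for stiffness. For stiffness on elastic gels, 13 of the 14 TRiC and prefoldin genes lie above 0, as do 14 of the 17 endoplasmic reticulum genes and 62 of all 91.

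The chaperonin TRiC folds actin and tubulin, and prefoldin hands these clients to it. With stiffness on elastic gels, 5 of 14 rose, namely Cct4 (0.22, adjusted p = 0.0132), Cct5 (0.18, adjusted p = 0.0379), Cct6a (0.23, adjusted p = 0.0178), Tcp1 (0.19, adjusted p = 0.0432) and Pfdn1 (0.24, adjusted p = 0.0276), a share of 35.7% against 14% of all genes, and the list median was 0.17. All but Pfdn1 were named after their values were seen. All 5 calls were lost without the third 20-kPa elastic sample. That fit called 1 gene of all the lists for stiffness on elastic gels, where 7.22% of all genes were called. This gene was the mitochondrial Hspd1, which was called in each of the 12 fits that left out 1 sample. On viscoelastic gels all 14 had positive differences with stiffness, as did 68 of the 91 genes of all lists. Of the 14, 2 were called (14.3%, against 2.28% of all genes), with Pfdn2 the larger (0.33, adjusted p = 0.0163). For gel type at 20 kPa, 5 of 14 were called (35.7%, against 33.5% of all genes), and these were all prefoldin subunits, Pfdn5 (0.62, adjusted p = 8.67e-05), Pfdn2 (0.35, adjusted p = 0.00043), Pfdn4 (0.28, adjusted p = 0.0111), Pfdn6 (0.26, adjusted p = 0.0168) and Pfdn1 (0.20, adjusted p = 0.036), of which the last 4 were named after their values were seen. At 2 kPa Pfdn5 was the call of this list (0.26, adjusted p = 0.0187), and it was lost without the third 2-kPa viscoelastic sample (adjusted p = 0.0929) and with a correction for gene length (0.15, adjusted p = 0.137). With the gene length correction, 2 genes of this list were called at 20 kPa in place of 5 (28.1% of all genes). For stiffness on elastic gels 6 were called in place of 5 (15% of all genes), and the calls for stiffness on viscoelastic gels were lost (1.14%).

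Chaperones of the endoplasmic reticulum, which fold secreted and membrane proteins, gave 6 calls of 17 for gel type at 20 kPa, 5 lower and 1 higher (35.3%, against 33.5% of all genes), with a list median of −0.04. Dnajc10, a disulfide reductase, fell the most (−0.45, adjusted p = 0.000172), and Sil1, the exchange factor of BiP, rose (0.28, adjusted p = 0.0112). At 2 kPa the call with the largest fall was Hyou1, the HSP110 relative of this compartment (−0.36, adjusted p = 0.00501), and thus opposite in direction to Hsph1. In mitochondria, Hspd1, the HSP60 chaperonin, rose with stiffness on elastic gels (0.33, adjusted p = 0.0043) and was lower on viscoelastic gels at 20 kPa (−0.21, adjusted p = 0.0218), where Clpp, a protease subunit, rose (0.32, adjusted p = 0.0026). Hspe1, the partner of Hspd1, rose with stiffness on viscoelastic gels (0.36, adjusted p = 0.0194). The Hspd1 call at 20 kPa was lost without the third 20-kPa elastic sample (adjusted p = 0.126), the Sil1 call without the second (adjusted p = 0.0551), and the Clpp call with the gene length correction (0.11, adjusted p = 0.196).

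Among other small heat shock proteins, Cryab, the lens and muscle alpha-crystallin that like Hspb1 binds the cytoskeleton, rose on viscoelastic gels at 2 kPa (0.49, adjusted p = 0.000554) and at 20 kPa (0.22, adjusted p = 0.0343). The second call was lost with the gene length correction (0.03, adjusted p = 0.8) and without the third 20-kPa elastic sample (adjusted p = 0.151). Hspb7 rose with stiffness on elastic gels (0.55, adjusted p = 0.0249) and was lower on viscoelastic gels at 20 kPa (−0.41, adjusted p = 0.0462), and both calls were lost without the second 20-kPa elastic sample (adjusted p = 0.106 and 0.189). The Hspb7 call at 20 kPa was kept in 3 of the 12 fits that left out 1 sample. It was also lost with DESeq2 (adjusted p = 0.0541) and with the replicate block (adjusted p = 0.0709). Hsbp1, which binds the trimer of the heat shock factor, rose on viscoelastic gels at 20 kPa (0.48, adjusted p = 0.00033).

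HSP90 cofactors and HSP70 exchange or adaptor factors gave 7 calls of 21 for gel type at 20 kPa, 5 higher and 2 lower (33.3%, against 33.5% of all genes). Sugt1, a co-chaperone of HSP90, rose the most (0.35, adjusted p = 0.000328), and Fkbp5, the immunophilin induced by glucocorticoids, was lower on viscoelastic gels at 20 kPa (−0.32, adjusted p = 0.00391) and at 2 kPa (−0.31, adjusted p = 0.0083). Bag5 was called higher at 2 kPa (0.17, adjusted p = 0.0416), Tomm34 fell with stiffness on elastic gels (−0.20, adjusted p = 0.038), and Fkbp4, the related immunophilin, rose with stiffness on viscoelastic gels (0.38, adjusted p = 0.0116). The relatives of HSP70 and HSP40 gave 7 calls of 20 at 20 kPa, 3 higher and 4 lower (35%, against 33.5% of all genes), with Dnajc8 (0.28, adjusted p = 0.00169) and Hspa1l (−0.69, adjusted p = 0.0121) at the ends. Hspa1l was barely expressed, as no elastic replicate at 20 kPa exceeded 0.962 CPM and no viscoelastic replicate exceeded 0.612 CPM. Its fold change was also less precise, with an SE of 0.191 against 0.0557 for Dnajc8. At 2 kPa the ends were Hspa2 (0.33, adjusted p = 0.0278) and Dnajb14 (−0.22, adjusted p = 0.00864). Hspa12a rose with stiffness on elastic gels (0.33, adjusted p = 0.033) and Dnajc2, which acts at the ribosome, on viscoelastic gels (0.31, adjusted p = 0.0292).

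Several of these calls were lost when 1 sample was left out. Without the third 20-kPa viscoelastic sample, Dnajc2, Fkbp4, Pfdn2 and Hspe1 had adjusted p of 0.142, 0.0707, 0.0801 and 0.108 for stiffness on viscoelastic gels. Without the third 20-kPa elastic sample, Hspa12a, Tomm34 and Pfdn1 had 0.145, 0.162 and 0.147 for stiffness on elastic gels. The Tomm34 call was kept in 6 of the 12 fits that left out 1 sample, and was lost with the replicate block (adjusted p = 0.0658). At 2 kPa, Bag5 and Fkbp5 lost their calls without the first 2-kPa elastic sample (0.123 and 0.0549) and Hspa2 without the second 2-kPa viscoelastic sample (0.109), and at 20 kPa Hspa1l lost its call without the first 20-kPa viscoelastic sample (0.053). Bag5 was lost in most of these fits, with 4 of 12 keeping its call. It was also lost with the replicate block (adjusted p = 0.0534) and with the gene length correction (0.11, adjusted p = 0.181). Dnajb14 was no longer called at 2 kPa after the gene length correction (−0.08, adjusted p = 0.27), nor was Hspe1 for stiffness on viscoelastic gels (0.26, adjusted p = 0.0797).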

How the data were processed

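RNA-seq of 12 samples, 3 in each of 4 groups, was analysed. The authors processed reads with Trimmomatic, STAR (mm10) and featureCounts, using GENCODE gene models, and deposited raw counts per gene with no normalization. The annotation release, the strand setting and the treatment of multi-mapping reads are not given in the sources used here. Groups came from the labels. Tests used edgeR 4.0.16 under R 4.3.3 (filterByExpr with a minimum count of 10 and total of 15, TMM, 1 coefficient per group over all 12 samples, quasi-likelihood test, Benjamini-Hochberg adjustment, threshold 0.05). The common biological coefficient of variation was 7.5%. TMM-normalized CPM, with a prior count of 2 on the log2 scale, gave levels. The script was tested on simulated data. Genes were matched by symbol to GENCODE M21 (mm10) for position, exon length and transcripts shared with other genes, with 2733 of 33246 not matched. Totals per sample limit precision most for Hspa1a.

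The members and lists were chosen with earlier results of these data known. The text names the 10 members, from each list and comparison of 2 groups the called genes with the largest rise and fall, and for each member the 3 genes with the highest correlation, though some genes that this rule takes are left out. Further genes are given by name for counts of at most 5. Alternatives were RLE factors, total counts alone, DESeq2 1.42.0, other filters and threshold, a replicate block, a gene length correction (lowess with a span of 0.3), only the 6 samples compared, summed Hspa1a and Hspa1b counts, and each sample left out. Imaging and other assays of the study were not analysed here.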

Additional observations from a re-analysis of the deposited data

Results flagged for a closer look

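By the test of the interaction, the response to stiffness differed between the gel types for 1 of the 10 heat shock genes and 3 of the 91 genes of the other lists, where 7.56% of all tested genes were called. For Hsph1 the interaction was −0.593 (SE 0.102, adjusted p = 0.0026), with 0.588 on elastic gels and no detectable difference on viscoelastic gels. For Fkbp4, an immunophilin co-chaperone of HSP90, it was 0.371 (SE 0.0846, adjusted p = 0.015), with levels (at 2 and 20 kPa, here and below) of 78.0 and 78.4 CPM on elastic and 63 and 81.8 CPM on viscoelastic gels. For Tomm34, which binds HSP70 and HSP90, it was 0.33 (SE 0.0833, adjusted p = 0.0259), with levels of 43.0 and 37.5 CPM on elastic and 42.4 and 46.4 CPM on viscoelastic gels. For the prefoldin subunit Pfdn5 it was 0.369 (SE 0.0987, adjusted p = 0.0335), with levels of 53.7 and 49.8 CPM on elastic and 64.0 and 76.8 CPM on viscoelastic gels. The Hsph1 call was kept in each of the 12 fits that left out 1 sample (−0.663 to −0.509) and under the other alternatives run. The Fkbp4 call was kept in these 12 fits (0.319 to 0.402) and with the replicate block (adjusted p = 0.024), and was lost at an adjusted p under 0.01 and with the gene length correction and the block together (adjusted p = 0.0595). The calls of Tomm34 and Pfdn5 were lost with the block (adjusted p = 0.0513 and 0.0564) and were kept in 5 and 3 of the 12 fits, with adjusted p of up to 0.0675 without the third 20-kPa elastic sample for Tomm34 and 0.091 without the first 2-kPa elastic sample for Pfdn5. Pfdn5 also lost its call with total counts alone (adjusted p = 0.0529) and with the gene length correction (adjusted p = 0.0873).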

How the results depend on the processing

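The calls of Hsph1 and Hspb1, and that of Hsp90aa1 for stiffness on elastic gels, held under every alternative run, and no called member reversed. The number of members called for gel type at 2 kPa was 2 of 10 in place of 1 with total counts alone (20.2% of all genes called) and DESeq2 (21.4%). It was also 2 with the gene length correction without the block (18.4%) or with it (15.9%). For gel type at 20 kPa it was 1 in place of 2 at an adjusted p under 0.01 (18.8% of all genes). For the interaction it was 2 in place of 1 with DESeq2 (9.36% of all genes), and for stiffness on elastic gels 3 in place of 2 (16.3%). With 1 sample left out, the number lay between 1 and 2 for gel type at 2 kPa and between 1 and 2 at 20 kPa. The uncalled difference of Hsph1 with stiffness on viscoelastic gels turned positive with total counts alone (0.00159), with the gene length correction (0.0244), with that correction and the block (0.0232), and ranged from −0.0442 to 0.0205 with 1 sample left out. Over the 7 lists, total counts alone called 16 genes for gel type at 2 kPa in place of 10 (20.2% of all genes called). They called 16 for stiffness on elastic gels in place of 10 (13.8%). The gene length correction called 17 for stiffness on elastic gels (15% of all genes) and 2 for stiffness on viscoelastic gels (1.14%). With the block as well it called 5 for gel type at 2 kPa (15.9%), 2 for stiffness on viscoelastic gels (0.559%) and 0 for the interaction (6.2%). Over all genes, calls for gel type at 2 kPa were 1275 higher and 1617 lower, and 1675 and 1258 with total counts alone, and those for stiffness on viscoelastic gels were 230 and 101, 89 and 72 with the gene length correction, 12 and 26 with only the 6 samples compared, 20 and 16 without the first 20-kPa viscoelastic sample, 5 and 4 without the third, and 476 and 281 with DESeq2. The cause of these shifts was not tested. Samples with the same replicate number deviated together in 2 of 18 pairs (correlations of −0.2 to 0.308, with 0.1 as the limit), so the numbers were not taken to pair samples. Both of these pairs set 2-kPa against 20-kPa viscoelastic gels (0.184 and 0.308), and the third replicate there gave 0.0483. Pairing was therefore not settled for stiffness on viscoelastic gels. With the replicate block the list calls for the interaction were 1 in place of 3 (5.81% of all genes). Calls for stiffness on viscoelastic gels over all genes were then 100 and 54, and the members called did not differ in number.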
